A study of Homo sapiens with 10 samples.

Results

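RNA of 38 genes for ATP-dependent chromatin remodelers was compared between the soluble and the chromatin-bound part of HEK293 nuclei. The genes belong to the SWI/SNF (BAF and PBAF), ISWI, CHD and INO80 families and their relatives. They are the members of a list of 47 symbols that had a row of their own and a test in the authors' deposited gene table, out of 16699 tested loci with 1 symbol and 241080 loci in all. Of the other 9, 8 lay in loci that name several genes and are described apart, and ARID1A had no row and was not analysed here. HEK293 is an established line of human embryonic kidney origin, grown here attached to the dish. Its nuclei were lysed with detergent and divided into 2 fractions, each from 3 biological replicates: the soluble nuclear extract, called SNE, and the extract of the chromatin pellet, called CPE. A further 2 chromatin samples with DRB, an inhibitor of transcription elongation, and 2 labelled mock were not analysed here. For SNE and CPE the labels name no genotype and no agent.

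A remodeler uses ATP to slide, eject or exchange histones. Its motor is a helicase-like ATPase of the SNF2 family, and most motors work inside large complexes whose other subunits bind histone marks, DNA, actin-related proteins or partners. BAF and PBAF open chromatin at enhancers and promoters, ISWI complexes space nucleosomes, CHD proteins act at active or repressed genes according to the member, and INO80, SRCAP and EP400 complexes handle the histone variant H2A.Z.

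Levels are in FPKM, fragments per kilobase of transcript scaled to library size. This allows a rough comparison between genes of long RNAs, but not with very short RNAs, whose length correction is uncertain. Each gene has 1 FPKM value per fraction. Each was computed by the authors over the replicates, so no value per sample, SD or depth can be given, and a difference was judged by the q value of the authors' Cuffdiff test. A gene was called at q of at most 0.05. The comparison addressed which RNAs stay with chromatin and which are released. Where a motor, subunit or partner is called abundant, its RNA in these nuclear fractions is meant, not its protein or its level in the whole cell. As a check of the fractions, the nuclear RNAs NEAT1 and MALAT1 were called higher in CPE, with log2 ratios of CPE over SNE of 3.44 and 1.45 by the authors' deposited table. Of 8 genes listed as HEK293 markers, VIM, KRT8 and KRT18 exceeded an FPKM of 1 and PAX2, LHX1, NEFL, NEFM and INA did not. The value of KRT18 is that of a locus that also names another gene. Of 7 markers of other cell types only COL1A1 exceeded 1 in either group, the list summed to 1.51 in SNE and 1.37 in CPE, ALB was listed at 0 in SNE and called higher in CPE at 0.373, CD3E and HBB were listed at 0 in both, and PECAM1 was not analysed here.

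Among the 38 genes, 17 were higher in the soluble extract, 0 were higher in the chromatin pellet and 21 were not called by the authors' Cuffdiff test. Over all tested loci with 1 symbol, 39.1% were called higher in SNE and 1.71% higher in CPE. Over the 9056 protein-coding loci with 1 symbol and an FPKM of at least 1 in either group, a level that all 38 genes reached, the shares were 56.8% and 0.519%. The count of remodeler genes called higher in SNE, 44.7%, thus lay between these backgrounds. At an unadjusted p of at most 0.05, 2 genes (CHD6 and CHD9) were higher in CPE and 20 higher in SNE, beside 3.08% and 50.2% of tested loci with 1 symbol. Other rules for a call, used in the closing section, have backgrounds of their own among these loci. For SNE and CPE they were 31.7% and 1.19% at q of at most 0.01, 37.1% and 1.46% with an absolute log2 ratio of at least 1, and 53.1% and 1.1% with an FPKM of at least 1 in both groups. They were 46% and 2.47% with p adjusted over loci with 1 symbol. Over all tested loci, named or not, 4.3% were higher in SNE and 8.73% higher in CPE.

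The median log2 ratio of the 38 genes was -1.04, with extremes of -2.16 and 0.94. It was -1.25 over all tested loci with 1 symbol above 0 in both groups and -1.44 over the protein-coding loci. Where the zero of a ratio falls depends on how the authors scaled the groups, and the typical named locus was itself lower in CPE. Relative to -1.25, 24 remodeler genes lay toward chromatin and 14 toward the soluble fraction. Toward chromatin lay also 3718 of the 9050 protein-coding loci and, since -1.25 is their median, 8074 of the 16148 loci with 1 symbol. All 21 genes without a call lay on the chromatin side of -1.25. So did DPF1, PHF10 and SMARCAD1 among the 17 called genes, and the other 14 stayed on the soluble side. Call and side are not independent, because calls were judged against 0. A ratio near 0 is less readily called and also lies above -1.25. The side of other loci without a call was not counted.

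**Figure D1:**
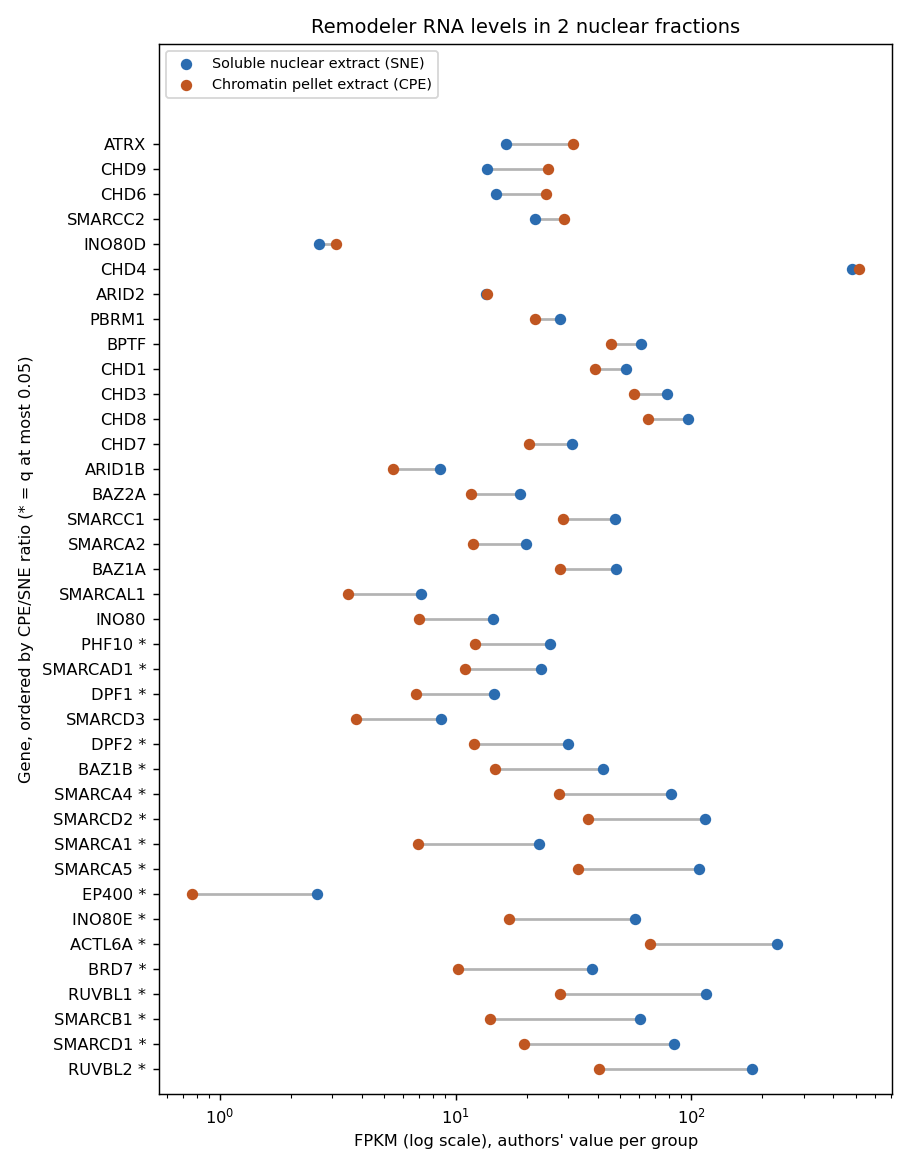
FPKM (log axis) of 38 remodeler genes in the soluble extract (blue) and the chromatin pellet (orange), 1 value per group from the authors' deposited table, with genes ordered by their ratio and an asterisk at q of at most 0.05. CHD4 lies far to the right in both groups, and the widest gaps, at the bottom, belong to RUVBL2, SMARCD1 and SMARCB1.

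SMARCA4 and SMARCA2 are the alternative motors of BAF and PBAF, and 1 of the pair was called. In the authors' deposited table SMARCA4 stood at 81.8 FPKM in SNE against 27.3 in CPE, which is 2.99-fold higher in SNE (q = 0.000706, the smallest in the table; region chr19:11071598-11176071 on hg19). SMARCA2, at 19.9 and 11.8 in the authors' deposited table, had no call (log2 ratio -0.75, q = 0.47). SMARCA4 was thus the more abundant motor, by 4.11-fold in SNE and 2.32-fold in CPE. The difference between the ratios of the pair, 0.83 on the log2 scale, could not be tested with 1 value per group.

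Of 14 BAF and PBAF subunits with a row of their own, 8 (57.1%) were higher in SNE, 0 had a CPE call and 6 had none. The SNE share stands beside 39.1% of all tested loci with 1 symbol and 56.8% of the protein-coding loci. For CPE calls these backgrounds were 1.71% and 0.519%. The 14 subunits had a median log2 ratio of -1.15, close to the -1.25 of named loci. Of them 8 lay on the chromatin side of that value and 6 on the soluble side, beside 3718 of 9050 protein-coding loci on the chromatin side. SMARCD1, a scaffold that contacts transcription factors, and SMARCB1, a core subunit lost in rhabdoid tumours, fell most. SMARCD1 stood at 84.1 FPKM in SNE against 19.4 in CPE by the authors' deposited table (log2 ratio -2.11, q = 0.000706). SMARCB1 had 60.7 and 14.1 in the authors' deposited table (log2 ratio -2.11, q = 0.000706). ACTL6A, an actin-related subunit shared with INO80 and EP400 complexes, was the most abundant subunit, at 231.6 in SNE and 66.6 in CPE by the authors' deposited table (log2 ratio -1.80, q = 0.0192).

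The SMARCD paralogs occupy the same place in the complex, and their levels differed more than their ratios. SMARCD2 stood at 114.0 FPKM in SNE against 36.4 in CPE by the authors' deposited table (log2 ratio -1.65, q = 0.00806). SMARCD3, the form prominent in heart and brain, had 8.65 and 3.78 and was not called (log2 ratio -1.20, q = 0.305 in the authors' deposited table). The order of levels was SMARCD2, SMARCD1 and SMARCD3 in both fractions.

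The core paralogs SMARCC1 and SMARCC2, which pair with each other, had unlike levels in SNE and nearly equal ones in CPE. SMARCC1 stood at 47.2 FPKM in SNE against 28.5 in CPE by the authors' deposited table. Its log2 ratio was -0.73 and its q of 0.0547 was the closest to the threshold among genes without a call. SMARCC2 had 21.6 in SNE and 28.9 in CPE by the authors' deposited table (log2 ratio 0.42, q = 0.527). SMARCC1 was thus the higher of the pair in SNE, and the values in CPE were nearly equal (1.01-fold), though neither gene was called.

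Subunits that read histone marks or DNA divided between called and not called. BRD7, a bromodomain subunit of PBAF, had 37.9 FPKM in SNE against 10.3 in CPE by the authors' deposited table (3.68-fold, q = 0.0125). The PHD finger protein DPF2 had 30.0 against 12.0 by the authors' deposited table (2.50-fold, q = 0.000706). Its paralog DPF1, a neuronal form, had 14.6 against 6.83 by the authors' deposited table (2.14-fold, q = 0.00361), and PHF10, the PHD finger subunit of PBAF, had 25.1 against 12.0 (2.09-fold, q = 0.00466). All 4 genes were thus higher in SNE. DPF1 and PHF10 had smaller differences than the typical named locus, so their side turns when ratios are set against -1.25. The large subunits that set complex identity were not called. ARID1B, which defines a form of BAF, stood at 8.60 FPKM in SNE against 5.45 in CPE (log2 ratio -0.66, q = 0.493) in the authors' deposited table. PBRM1 and ARID2, which define PBAF, had 27.6 and 21.7 (log2 ratio -0.35, q = 0.559) and 13.4 and 13.6 (log2 ratio 0.02, q = 0.925) in the authors' deposited table.

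SMARCA5 and SMARCA1, the motors of ISWI complexes, were both higher in the soluble extract and had nearly the same ratio. SMARCA5 stood at 108.1 FPKM in SNE against 33.0 in CPE by the authors' deposited table (q = 0.000706), a 3.28-fold difference. SMARCA1 had 22.5 and 6.90 in the authors' deposited table (q = 0.000706), a 3.26-fold difference. SMARCA5 was the more abundant by 4.81-fold in SNE and 4.78-fold in CPE. Both stayed on the soluble side of the median of named loci.

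Of 4 partners of ISWI motors with a row of their own, BAZ1B was called higher in SNE and 3 had no call. This share, 25%, stands beside 39.1% of all tested loci with 1 symbol and 56.8% of the protein-coding loci. BAZ1B, the partner in the WICH complex and a gene of the Williams syndrome region, stood at 42.2 FPKM in SNE against 14.6 in CPE by the authors' deposited table (log2 ratio -1.53, q = 0.000706). BPTF, the largest subunit of NURF and the most abundant partner, had 61.1 and 45.5 (log2 ratio -0.43, q = 0.493) in the authors' deposited table. BAZ1A, the ACF and CHRAC partner, and BAZ2A, the NoRC partner at ribosomal DNA, had log2 ratios of -0.78 (q = 0.124) and -0.70 (q = 0.534) by the authors' deposited table. These 3 values lie on the chromatin side of the median of named loci.

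None of the 7 CHD genes with a row of their own was called in either direction by Cuffdiff. Over all tested loci with 1 symbol 39.1% were called higher in SNE and 1.71% higher in CPE. The shares over the protein-coding loci were 56.8% and 0.519%. CHD6 and CHD9 were the 2 CHD genes with an unadjusted p of at most 0.05. The 7 CHD genes had a median log2 ratio of -0.44. All 7 lay on the chromatin side of the median of named loci, as did 3718 of 9050 protein-coding loci. CHD4, a motor of the NuRD deacetylase complex, was the most abundant of the 38 genes in both fractions. It stood at 477.4 FPKM in SNE against 513.7 in CPE by the authors' deposited table (log2 ratio 0.11, q = 0.935; region chr12:6665812-6716642 on hg19). Its paralog CHD3, also of NuRD, had 78.9 and 56.9 (log2 ratio -0.47, q = 0.7) in the authors' deposited table. CHD4 was thus 6.05-fold above CHD3 in SNE and 9.02-fold above it in CPE.

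CHD9 and CHD6, relatives of CHD7 and CHD8, had the highest ratios of the family. CHD9 stood at 13.6 FPKM in SNE against 24.6 in CPE by the authors' deposited table (log2 ratio 0.86, p = 0.0269, q = 0.155). CHD6 had 14.8 and 24.3 in the authors' deposited table (log2 ratio 0.71, p = 0.034, q = 0.186). Neither passed the threshold, so no enrichment in CPE is read from them. CHD7, mutated in CHARGE syndrome, had 31.2 and 20.5 (log2 ratio -0.61, q = 0.493), and CHD8, a repressor of Wnt target genes linked to autism, had 96.3 and 65.3 (log2 ratio -0.56, q = 0.519), in the authors' deposited table. CHD1, which binds methylated histone H3 at transcribed genes, had 52.9 and 38.9 (log2 ratio -0.44, q = 0.462) in the authors' deposited table.

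**Figure D2:**
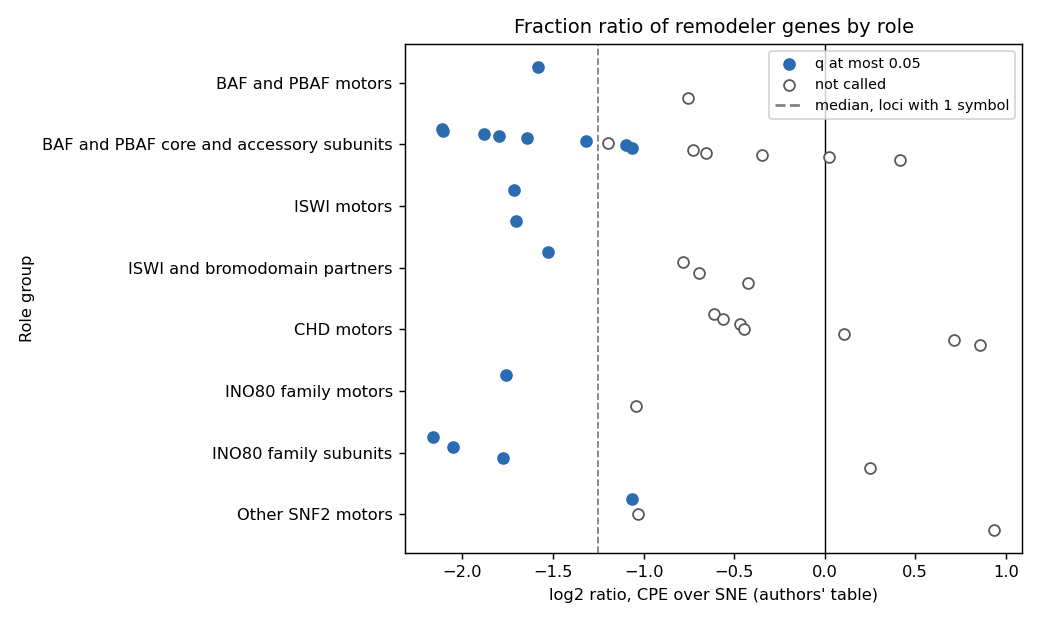
Log2 ratio of CPE over SNE for each gene (points) by role, filled at q of at most 0.05, with 0 (solid line) and the median of named loci, -1.25 (dashed line). The 7 CHD motors are all open and to the right of the dashed line, and both ISWI motors are filled and to its left.

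RNA of the INO80 family motors was less abundant than RNA of the helicases that join them. INO80 stood at 14.5 FPKM in SNE against 7.02 in CPE and was not called (log2 ratio -1.04, q = 0.0922) in the authors' deposited table. EP400, the motor of the complex that also holds the acetyltransferase KAT5, was the lowest of the 38 genes in both fractions, at 2.60 in SNE and 0.766 in CPE by the authors' deposited table (log2 ratio -1.76, q = 0.00134).

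The shared helicases RUVBL1 and RUVBL2, which form a ring in INO80, SRCAP and EP400 complexes, were far more abundant than these motors and higher in SNE. RUVBL2 stood at 181.4 FPKM in SNE against 40.6 in CPE by the authors' deposited table, the largest difference among the 38 genes (4.47-fold, q = 0.000706). RUVBL1 had 115.4 and 27.9 (log2 ratio -2.05, q = 0.000706) in the authors' deposited table. Of the subunits particular to INO80, INO80E had 57.4 and 16.8 and was called higher in SNE (log2 ratio -1.78, q = 0.000706), and INO80D had 2.63 and 3.12 and was not called (log2 ratio 0.25, q = 0.493), in the authors' deposited table.

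Of 3 further SNF2 motors, SMARCAD1 was called higher in SNE and ATRX and SMARCAL1 had no call. SMARCAD1, which acts at replicated chromatin and DNA ends, stood at 23.0 FPKM in SNE against 11.0 in CPE by the authors' deposited table (2.09-fold). Its q of 0.0342 was the closest to the threshold among called genes, and its ratio of -1.07 lies on the chromatin side of the median of named loci. ATRX, which deposits histone H3.3 at repeats and telomeres, had the highest ratio of the 38 genes. It had 16.4 in SNE and 31.3 in CPE by the authors' deposited table (log2 ratio 0.94, q = 0.311; region chrX:76757262-77041702 on hg19) and did not pass the threshold. SMARCAL1, which remodels stalled replication forks, had 7.17 and 3.51 (log2 ratio -1.03, q = 0.497) in the authors' deposited table.

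Calls were also counted for motors against the proteins around them. Of 16 motors 5 (31.25%) were higher in SNE and 11 had no call, with a median log2 ratio of -0.68. Of 22 subunits and partners 12 (54.5%) were higher in SNE and 10 had no call, with a median of -1.15. These shares stand beside 39.1% of all tested loci with 1 symbol and 56.8% of the protein-coding loci. The difference between motors and subunits or partners was not tested. Gene length moved with it: median length in GENCODE 29, the reference annotation used for lengths, was 101.1 kb for motors and 46.1 kb for subunits and partners.

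Calls were counted by gene length, beside protein-coding genes of the same length. Of 14 remodeler genes under 50 kb, 9 (64.3%) were higher in SNE, beside 69.3% of 5322 protein-coding loci of that length. From 50 to 100 kb 6 of 10 genes were higher in SNE, beside 51.1% of 1674 loci. At 100 kb and above, SMARCA4 and EP400 were the called genes among 14 (14.3%), beside 29.2% of 2054 loci. The median log2 ratios in these bands were -1.26, -1.30 and -0.63 for remodeler genes and -1.67, -1.30 and -0.91 for protein-coding loci.

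Across the 38 genes the log2 ratio rose with the logarithm of gene length (Pearson r = 0.50, Spearman rho = 0.53) and of the longest transcript (r = 0.60, rho = 0.65). Over 9050 protein-coding loci the same values were 0.40 and 0.41 for gene length and 0.38 and 0.41 for the transcript. These correlations are across genes of the same libraries, which are not independent replicates. ATRX, CHD9 and CHD6, the 3 genes of highest ratio, span 281.4, 274.1 and 216.4 kb. ARID1B, the longest at 434.8 kb, had a ratio of -0.66, and SMARCC2 and CHD4, at 26.6 and 44.4 kb, had ratios above 0, so length did not order the genes strictly. Within length bands the order of motors and of subunits or partners was not the same. Under 50 kb, 1 of 3 motors and 8 of 11 subunits and partners were higher in SNE, and from 50 to 100 kb the counts were 2 of 5 and 4 of 5. At 100 kb and above they were 2 of 8 motors and 0 of 6 subunits and partners.

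**Figure D3:**
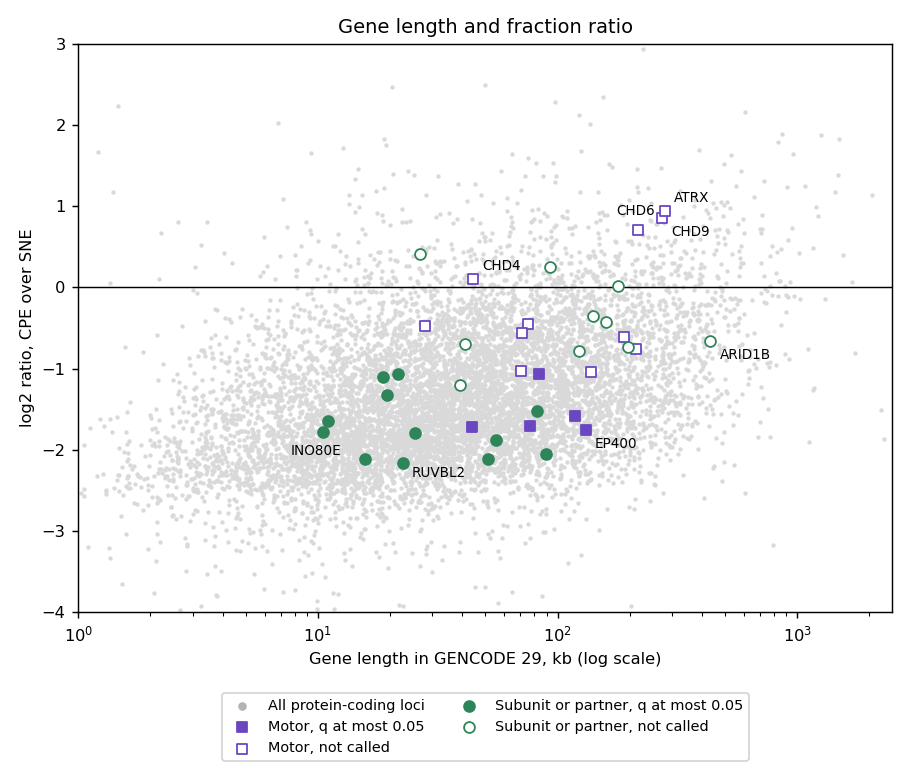
Gene length (log axis, kb) against the log2 ratio of CPE over SNE for protein-coding loci (grey, 79 of them outside the axes) and for remodeler motors (squares) and subunits or partners (circles), filled at q of at most 0.05. Filled symbols end at EP400 (131.2 kb), and the longer genes are open, among them ATRX, CHD9 and CHD6 above 0.

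The 8 genes found only in loci that name several genes gave values that cannot be assigned to 1 gene. In the authors' deposited table the loci of SMARCE1 (with KRT222) and INO80B (with WBP1) had SNE calls, at log2 ratios of -1.78 (q = 0.000706) and -0.93 (q = 0.00251). The second of these lies on the chromatin side of -1.25. The loci of CHD1L, HELLS, CHD2, SRCAP, INO80C and BAZ2B had a q above 0.05, at log2 ratios of -0.89, -0.02, 0.26, -0.97, -0.78 and 0.65 by the authors' deposited table. At an unadjusted Cuffdiff p of at most 0.05, 5 of the 8 loci were higher in SNE. Beside the 2 called these were CHD1L (p = 0.04575), SRCAP (p = 0.01495) and INO80C (p = 0.0127) by the authors' deposited table. By that rule 50.2% of tested loci with 1 symbol were higher in SNE and 3.08% higher in CPE. At q of at most 0.05, over all tested loci with a symbol, including those that name several, 39.3% were higher in SNE and 1.83% higher in CPE. CHD2, mutated in an epileptic encephalopathy, stood at 68.1 FPKM in SNE against 81.4 in CPE, and HELLS, which supports DNA methylation at repeats, had 87.2 and 86.2, in the authors' deposited table.

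Several remodeler genes carry small nucleolar or Cajal body RNAs, which guide chemical modification of ribosomal and spliceosomal RNA and are trimmed out of their host's introns. In GENCODE 29, 5 of the 47 genes (CHD3, CHD4, CHD8, EP400 and SRCAP) hold such RNAs on their own strand, and 5 of these RNAs are described here. All of these but SNORD8 lie outside every annotated exon of the host, and SNORD8 overlaps an exon of a CHD8 transcript. The table holds 4 rows with the symbol SCARNA11 and 3 each for SNORA30 and SCARNA21, and for each the row whose region is that of the host was used. SCARNA21, in CHD3, was listed at 0 in both groups without a test. The other 4 are shown, chosen after their values were seen, because their ratios lay above 0 and those of 3 of their 4 hosts below it. Sequences are those of GENCODE 29, 5′ to 3′. Capitals mark, in SNORA and SCARNA, the last ACA, and in SNORD, the first TGATGA (box C) and the last CTGA (box D).
SNORA49: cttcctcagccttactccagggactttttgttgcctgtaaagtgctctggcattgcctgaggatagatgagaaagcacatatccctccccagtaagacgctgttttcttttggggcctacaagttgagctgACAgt
SNORA30: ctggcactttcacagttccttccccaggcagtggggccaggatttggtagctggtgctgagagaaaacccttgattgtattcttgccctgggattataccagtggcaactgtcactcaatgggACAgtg
SNORD8: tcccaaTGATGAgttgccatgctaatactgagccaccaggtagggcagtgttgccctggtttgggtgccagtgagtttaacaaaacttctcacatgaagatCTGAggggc
SCARNA11: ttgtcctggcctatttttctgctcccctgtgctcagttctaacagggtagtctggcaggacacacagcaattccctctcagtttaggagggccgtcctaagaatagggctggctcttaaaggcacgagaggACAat

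On GRCh38 they lie at chr12:132031224-132031359 (plus strand, in EP400), chr16:30710537-30710665 (plus, in SRCAP), chr14:21397292-21397401 (minus, in CHD8) and chr12:6581474-6581609 (minus, in CHD4), in the order shown. An ACA within the last 8 bases was present in 89.9% of 149 SNORA transcripts, and TGATGA followed by CTGA in 76.4% of 288 SNORD transcripts, read on the transcript strand.

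SNORA49 was higher in the chromatin pellet while its host EP400 was higher in the soluble extract. In the authors' deposited table SNORA49 stood at 252.2 FPKM in SNE against 8071 in CPE (32.0-fold, q = 0.000706). EP400 had 2.60 and 0.766 in the authors' deposited table, and the levels of so short an RNA and of its host are not compared. The small RNA and its host thus had opposite calls, the difference between their ratios itself was not tested, and neither changes side when ratios are set against -1.25. EP400 lies below an FPKM of 1 in CPE, so its call drops out where 1 is required in both groups. Over all tested loci with 1 symbol 1.71% were called higher in CPE. The share among small nucleolar RNAs was not counted. SCARNA11 had 11.6 in SNE and 34.0 in CPE and was not called (log2 ratio 1.55, q = 0.601 in the authors' deposited table).

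SNORD8 and SNORA30 had too few data for a test, so their values are given without a call. SNORD8 stood at 82.8 FPKM in SNE against 581.3 in CPE, by the authors' deposited table. SNORA30 had 8.15 and 209.2 in the authors' deposited table. Whether reads of a small RNA entered the value of its host was not tested.

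**Figure D4:**
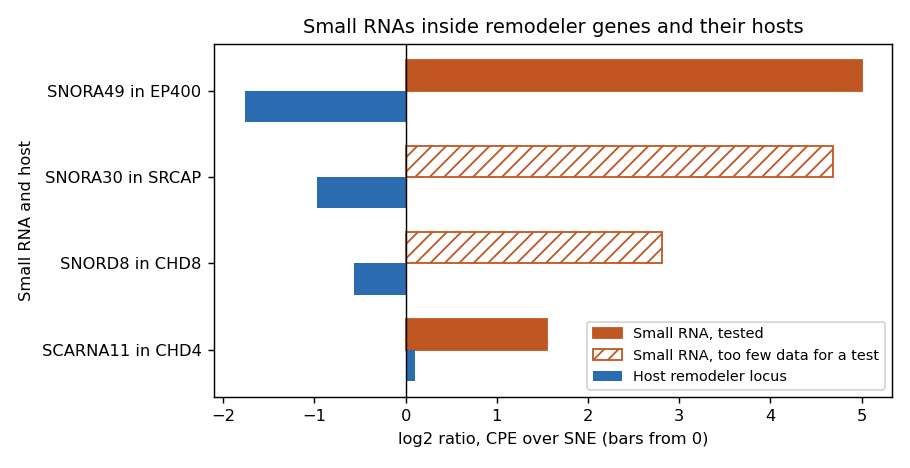
Log2 ratio of CPE over SNE (bars from 0) for 4 small RNAs, solid where tested and hatched where the authors' table gives no test, and for the host locus of each (blue). SNORA49 reaches 5.00 beside -1.76 for EP400, and the locus of SRCAP also names other genes.

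The regions of the remodeler genes also held loci without a symbol, and these had higher ratios than the gene. The table gives each locus the region of its bundle, so an unnamed locus shares a region with the gene but its own position, its strand and its overlap with introns are not known here. The 38 regions held 950 tested unnamed loci, of which 49 (5.16%) had a CPE call, 0 had an SNE call by Cuffdiff (0 also at an unadjusted p of at most 0.05) and 901 had none. Among the unnamed loci of the whole table, 9.45% were higher in CPE and 0.63% higher in SNE. In 38 of 38 regions the median log2 ratio of the unnamed loci lay above 0 and above that of the remodeler gene. Unnamed and named loci of the whole table stand in the same order, so it is not read as a trait of these regions. Unnamed loci low in SNE may have reached a test through their level in CPE. This was not examined, and it could set the order beforehand. These medians ran from 1.11 in the region of DPF1 to 3.67 in that of CHD6, with a middle value of 2.46, beside 3.21 over all unnamed loci above 0 in both groups. Tested loci with 1 symbol above 0 in both groups had a median of -1.25. The medians rest on 1 unnamed locus each for SMARCD1 and CHD4 and on 2 each for PHF10 and RUVBL2. How often regions of other named genes show the same order was not counted.

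In 24 of the regions other named loci were tested too. The 14 regions without another tested named locus held 296 unnamed loci, of which 18 (6.08%) had a CPE call and 0 an SNE call by Cuffdiff (0 also at an unadjusted p of at most 0.05), and their medians ran from 1.11 to 3.66. In the region of SMARCA2, 56 unnamed loci had a median FPKM of 0.107 in SNE and 1.36 in CPE, with 3 called higher in CPE. In that of CHD7, 74 had medians of 0.152 and 1.70, also with 3 called. The unnamed loci around ATRX, 33 in number, had medians of 0.476 and 3.63, with 2 called. Across the 34 regions with at least 5 unnamed loci above 0 in both groups, the gene's log2 ratio and the median of the unnamed loci had Pearson r = 0.40 and Spearman rho = 0.39. Over the 12 such regions without another tested named locus the values were 0.25 and 0.28. Gene and unnamed loci share libraries and scaling, so this is a description.

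**Figure D5:**
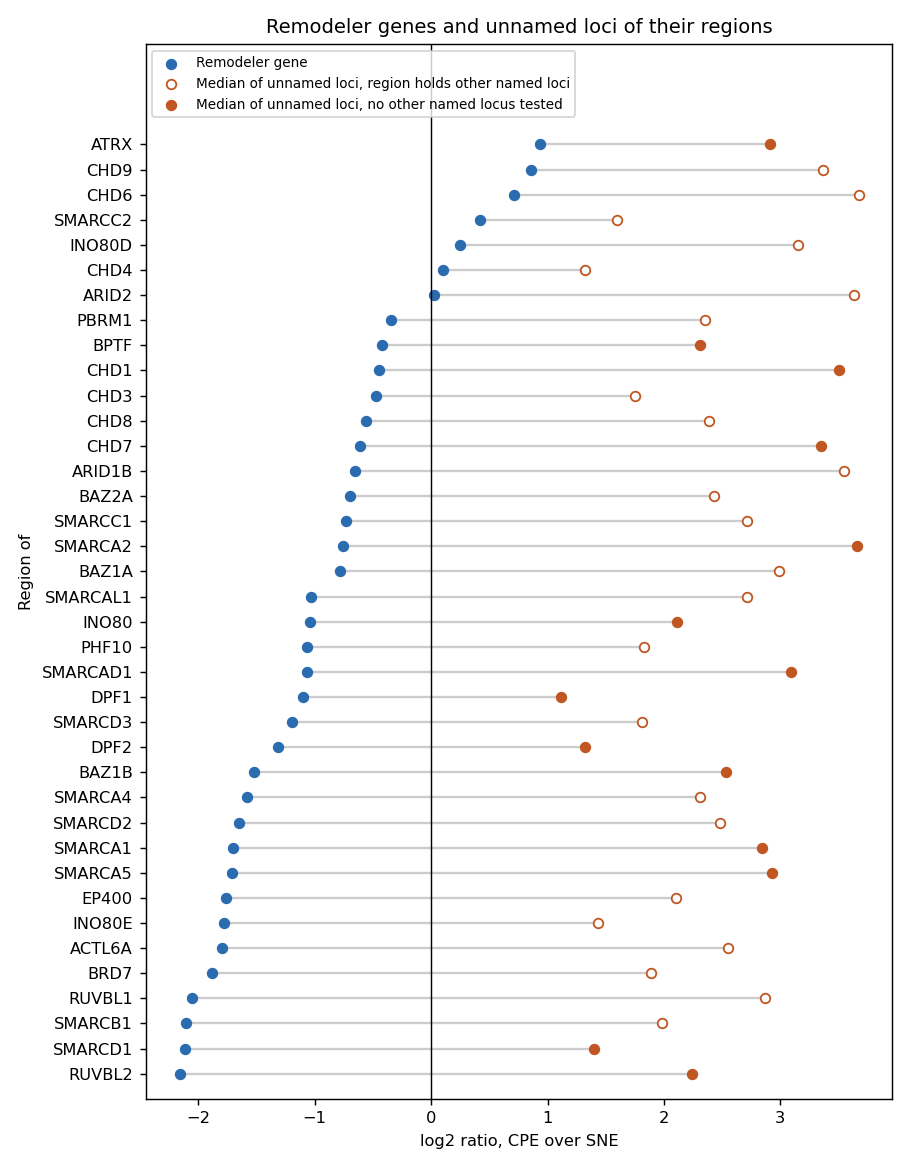
Log2 ratio of CPE over SNE for each remodeler gene (blue) and the median over the tested unnamed loci of its region that are above 0 in both groups (orange, filled where no other named locus of the region was tested). Every orange point lies above 0 and to the right of its gene, from 1.11 (DPF1) to 3.67 (CHD6). The points of SMARCD1 and CHD4 rest on 1 unnamed locus each, and those of PHF10 and RUVBL2 on 2 each.

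A list of 56 further genes of the same complexes or of the SNF2 family was read in the same way. Of 37 with a row of their own and a test, 23 were higher in SNE, 0 had a CPE call by Cuffdiff (0 also at an unadjusted p of at most 0.05) and 14 had none, with a median log2 ratio of -1.48. The share higher in SNE, 62.2%, stands beside 39.1% of all tested loci with 1 symbol and 56.8% of the protein-coding loci. Of 13 in loci that name several genes, 6 (46.2%) were higher in SNE and 7 had no call. Over all tested loci with a symbol, including several, the shares were 39.3% for SNE and 1.83% for CPE. A further 6 genes had a row without a test. Among called genes with a row of their own, 4 had the largest differences. CHRAC1 and POLE3, histone-fold partners of ISWI, exceeded their CPE level 6.30-fold and 4.78-fold in SNE by the authors' deposited table (q = 0.000706 for both). ZNHIT1, a subunit of SRCAP, and BCL7A, of BAF, did so 4.94-fold and 4.65-fold by the authors' deposited table (q = 0.000706 for both). The loci that name VPS72, of SRCAP, and MBD3, of NuRD, beside other genes differed 5.31-fold and 5.14-fold in the same direction by the authors' deposited table (q = 0.000706 for both).

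By complex, 6 of 7 NuRD subunits, 11 of 15 subunits of INO80, SRCAP and EP400 complexes, 2 of 2 ISWI partners and 3 of 7 BAF subunits had SNE calls, to be read against the same backgrounds. Of 6 further SNF2 motors TTF2, which releases transcripts from RNA polymerase II, was higher in SNE (2.21-fold, q = 0.00466 by the authors' deposited table), and the other 5 had no call. The log2 ratio of TTF2, -1.14, turns to the chromatin side when set against -1.25. The 7 NuRD subunits with a row of their own may be set beside the motors: their median log2 ratio was -1.72, against 0.11 for CHD4 and -0.47 for CHD3. This median leaves out HDAC1, RBBP4 and CHD5, which had no test. It also leaves out the loci that name MTA1 (-0.68) and MBD3 (-2.36) beside other genes, by the authors' deposited table. Whether motors and subunits differ was not tested here either.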

How the data were processed

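RNA was measured by stranded total RNA sequencing, per the labels' protocols. The authors aligned reads with TopHat2 and tested expression with Cuffdiff on hg19, per the submitters' processing notes. Their versions, annotation and scaling are not given in the sources used here. As deposited, the authors' gene table holds 1 FPKM value per group, the log2 ratio of CPE over SNE, and a p-value and q-value for each locus, per the file headers. Depth per sample is unknown. A deposited isoform table was not used, because its isoform values fall far below those of the gene table (HELLS, for example).

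Genes were matched by symbol to rows with a test. A call was the authors' q of at most 0.05. Smallest p and q were 5e-05 and 0.000706, shared by 10 of the 38 genes. Region starts count from 1. All 38 genes had a GENCODE 29 length. Protein-coding loci were those typed so there by symbol. Counts, medians and correlations were computed with Python 3.11.15, pandas 2.3.3 and SciPy 1.17.1. Only the adjustment of p-values and the rule for a call were checked on simulated data. Named were all motors, the most abundant and the most changed called gene of each role, ratios above 0, paralogs, genes nearest the threshold and the 4 most changed other remodeling genes with a row of their own. Genes and lists were chosen with earlier results of these data known. Of the small RNAs inside these genes, 5 are reported and any other is not reported here.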

Additional observations from a re-analysis of the deposited data

How the results depend on the processing

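No paired analysis was possible because the deposited table holds 1 value per group, and for the same reason no replicate could be left out. The count of 17 remodeler genes higher in SNE was 14 at q of at most 0.01 (ACTL6A, BRD7 and SMARCAD1 lost), 17 with a minimum absolute log2 ratio of 1, 16 with an FPKM of at least 1 in both groups, 20 with the authors' p adjusted over loci with 1 symbol (SMARCC1, BAZ1A and INO80 gained) and 19 with loci that name several genes. No gene was higher in CPE under these alternatives. Centring on the median of loci with 1 symbol left 14 called genes on the soluble side and put 3 on the chromatin side, DPF1 (0.16), PHF10 (0.19) and SMARCAD1 (0.19). Centred ratios were not tested. The same centring put 2 of the 23 called further remodeling genes on the chromatin side. The median log2 ratio of -1.04 became -1.02 and -0.90 with 0.1 and 1 added to FPKM, -1.03 with the FPKM minimum, -0.91 with loci that name several genes and 0.22 after centring.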
